A study of Gallus gallus with 25 samples.

Results

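Contact domains of lampbrush-stage chicken oocytes were compared between LBC type 1 and LBC type 2 nuclei. Of the 25 single nuclei in the series, 20 were labelled as of the lampbrush chromosome (LBC) stage, 14 as type 1 and 6 as type 2. All 20 were wild-type oocyte nuclei from oocytes 1 to 2 mm in diameter, taken from the ovary of healthy hens, fixed with formaldehyde and carried singly through Hi-C, which joins and sequences DNA ends that lie close together in the nucleus. The type was assigned by the submitters after quality control, from the share of contacts between different chromosomes, which was the lower in type 1. It is thus a label read from the sequenced contacts and not from an independent feature of the oocyte. Nuclei with the higher share also had more long-range contacts, according to the paper. It describes their domain boundaries as clustering much like those of chicken fibroblasts, and leaves the origin of the types unclear. Averaged around binding sites of the protein CTCF, their maps looked to the authors like a mixture of type 1 and fibroblast signals. The strength of their chromatin compartments, however, departed from that of computed mixtures of the 2. The paper considers somatic contamination unlikely and an earlier, pre-lampbrush stage more plausible. The paper's main analyses of contact domains used only the nuclei with the lower share. What this means for the differences below was not tested. The number of hens behind each type is not given in the sources used here.

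Lampbrush chromosomes are the extended, highly transcribed bivalents of the growing diplotene oocyte, in which each chromosome is a row of compact chromomeres from which loops of transcribed chromatin extend. In a Hi-C map, a contact domain is a stretch of a chromosome whose parts touch each other more often than they touch their neighbours, and it is described by its 2 boundaries. The chicken karyotype joins a few long macrochromosomes, a set of intermediate ones and many short, gene-rich microchromosomes, and hens carry 1 Z and 1 W. The files hold no gene readout, so neither the oocyte nor any other cell type could be checked from marker genes.

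The nuclei of each type were pooled by the authors into 1 map, and the domains of each map were called with lavaburst, which divides a chromosome so that a global score of the domains is highest. The lists are labelled as automatically adjusted, and how they were adjusted is not described in the sources used here. Each list gives where every domain begins and ends on the chicken assembly ASM2420605v2 and no value of a single nucleus. There is therefore no spread between nuclei against which a difference could be tested, no p-value is given, and every value below describes these 2 pooled maps. The depth behind each domain is not in the lists. Its part in the differences was not tested, and neither was that of lavaburst's gamma, which sets how long domains become. Gamma was scaled with chromosome size for single nuclei, and for the pooled maps it is not given in the sources used here. Intervals on shares are 95% Wilson intervals and cover counting error only, and the domains of a map are not replicates of it.

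The type 1 map held 1546 domains and the type 2 map 1582, on the same 28 chromosomes (1 to 15, 17 to 28 and Z). All positions lay on a grid of 16 kb, no domains overlapped, and both lists began above 200 kb, with a shortest domain of 208 kb each. The longest domain had 1936 kb in type 1 and 1440 kb in type 2. The domains covered 984 Mb in type 1 and 988 Mb in type 2, so that the lists divided nearly the same length into nearly the same number of pieces. For single nuclei, the methods chose gamma so that the average domain size came closest to a preset value, 1 Mb for chicken oocytes. The pooled lists averaged less, 637 kb in type 1 and 625 kb in type 2. Whether such a choice also set the near-equal number and average size of domains in the pooled maps was not tested.

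The spread of domain sizes differed more than their average. Domains averaged 637 ± 272 kb in type 1 and 625 ± 203 kb in type 2 (SD over domains), a ratio of 1.02, type 1 over type 2. The medians ran the other way, 592 kb in type 1 and 608 kb in type 2, a ratio of 0.974. The coefficient of variation was 42.7% in type 1 and 32.5% in type 2. Type 1 held more domains at both ends of the size range and fewer in its middle. Up to 300 kb long were 103 domains of type 1 and 56 of type 2, and over 1200 kb long were 57 of type 1 and 12 of type 2. Between 400 and 800 kb, type 1 had 472 domains up to 600 kb and 399 above it, against 554 and 524 in type 2. This held for the pooled lists and not for every chromosome. The SD was higher in type 1 on 17 of 28 chromosomes, and microchromosomes had 5 type 1 and 12 type 2 domains over 1 Mb.

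The direction of the size difference depended on the chromosome. On the macrochromosomes (1 to 5), the mean was 669 ± 280 kb over 893 type 1 domains and 618 ± 200 kb over 970 type 2 domains, a ratio of 1.08. On the intermediate chromosomes (6 to 10) it was 550 ± 212 kb over 258 type 1 domains and 598 ± 190 kb over 239 type 2 domains, a ratio of 0.921. On the microchromosomes (11 to 28) it was 559 ± 190 kb over 304 type 1 domains and 634 ± 204 kb over 269 type 2 domains, a ratio of 0.881. On Z, the sex chromosome that hens carry in 1 copy, it was 823 ± 391 kb over 91 type 1 domains and 721 ± 233 kb over 104 type 2 domains, a ratio of 1.14. Type 1 domains were thus longer on average over the macrochromosomes as a class and on Z, and shorter over the intermediate chromosomes and the microchromosomes. Each of these differences was smaller than the SD over the domains of either list. That SD describes the spread of domain sizes and does not measure the error of a mean.

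**Figure D1:**
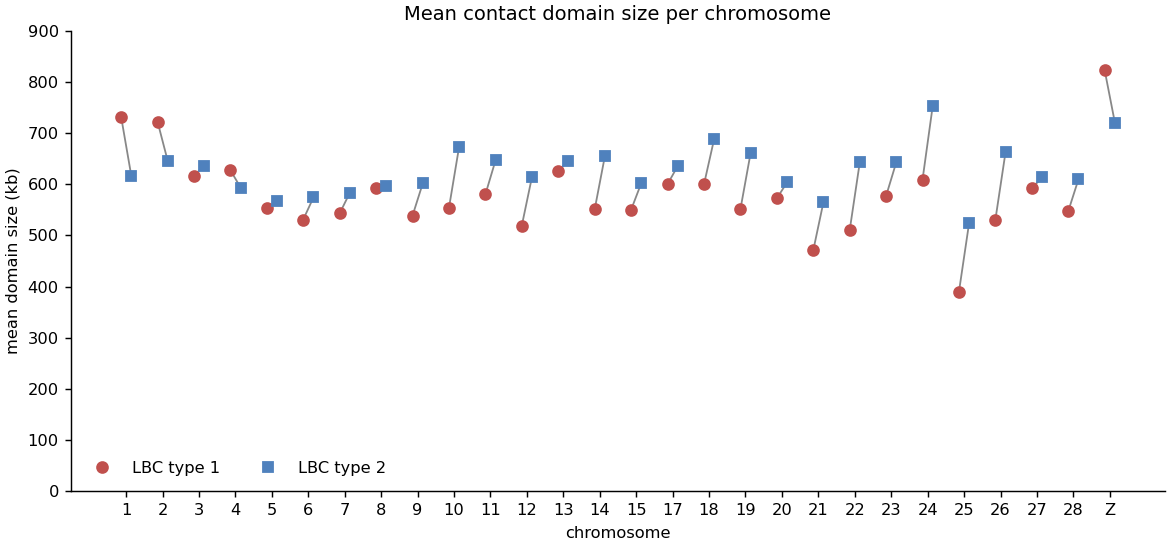
Mean contact domain size in kb (vertical axis, from 0) on each of the 28 chromosomes (horizontal axis), with LBC type 1 as circles and LBC type 2 as squares joined by a line. The type 1 mean lies above the type 2 mean on chromosomes 1, 2, 4 and Z and below it on the other 24, with the widest gaps downward on chromosomes 22, 24, 25 and 26.

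Chromosome by chromosome, the mean was higher in type 1 on 4 of 28 chromosomes, 1, 2, 4 and Z, and lower on the other 24, which included all 23 autosomes from 5 to 28. It was over 1.1-fold higher in type 1 on 3 chromosomes, 10.7% of them, and over 1.1-fold lower on 14, or 50.0%. The highest ratio was on chromosome 1, where 263 type 1 domains averaged 733 ± 319 kb and 313 type 2 domains 617 ± 193 kb, a ratio of 1.19. Z followed with 1.14, and chromosome 2 with 1.12, from means of 723 ± 291 kb over 203 type 1 domains and 646 ± 208 kb over 228 type 2 domains. The lowest ratios were on 3 of the smallest microchromosomes. Chromosome 25 had 8 type 1 domains of 390 kb and 6 type 2 domains of 525 kb on average, a ratio of 0.742. On chromosome 22, 9 type 1 domains averaged 510 kb and 7 type 2 domains 645 kb, a ratio of 0.792, and on chromosome 26, 10 type 1 domains averaged 531 kb and 8 type 2 domains 664 kb, a ratio of 0.80. With so few domains, each of these 3 ratios rests on a difference of 2 domains over nearly the same length. Chromosome 3 was the exception among the 4 longest chromosomes, with 617 ± 241 kb in type 1 and 637 ± 226 kb in type 2, a ratio of 0.968. Chromosome 8 was closest to parity, with 49 domains in each list, 593 kb in type 1 and 597 kb in type 2.

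The ratio followed the length of the chromosome, measured as the position of its last boundary. Over 28 chromosomes, Pearson's r of the ratio with log2 length was 0.83 and Spearman's rho 0.74, and over the 17 chromosomes with at least 20 domains in both lists they were 0.83 and 0.69. Over all 28, the mean size of type 1 had r = 0.68 and rho = 0.52 with log2 length, and that of type 2 r = -0.0042 and rho = -0.10. Among the shorter classes this did not hold. The type 1 mean was 550 kb on intermediate chromosomes and 559 kb on microchromosomes. That of type 2 was 598 kb and 634 kb, so the lower ratio on microchromosomes went with longer type 2 domains. Across chromosomes, the type 1 means had an SD of 81.7 kb and ranged between 390 and 823 kb, and the type 2 means had an SD of 48.3 kb and ranged between 525 and 754 kb. These correlations describe chromosomes of the same 2 maps, which share their nuclei and their depth, and carry no test. The methods scale gamma with chromosome size for single nuclei. Whether this was done for the pooled maps is not given, and its part in the correlations was not tested. Leaving out chromosome 1 brought the macrochromosome ratio to 1.04 and the ratio over all domains to 0.985, and leaving out chromosome 3 brought them to 1.11 and 1.03, so that the direction over all domains rested on chromosome 1.

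**Figure D2:**
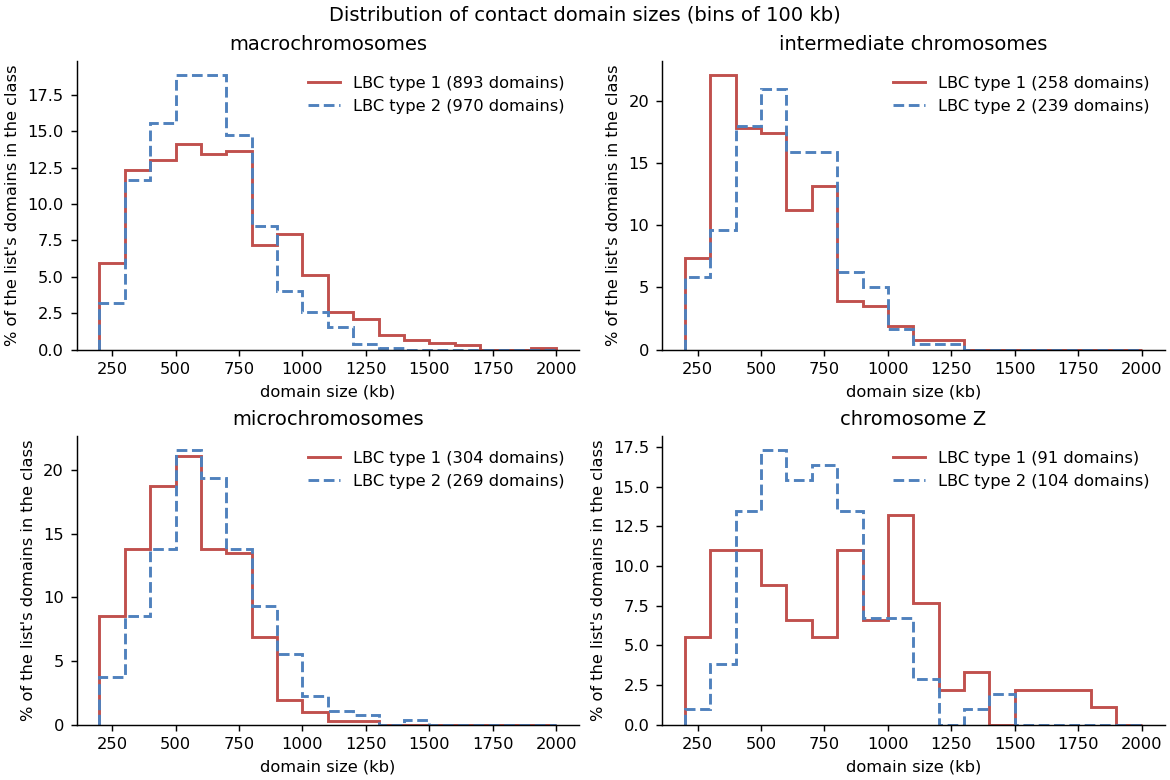
Share of the domains of each list (vertical axis, % within the class) by domain size in kb (horizontal axis, bins of 100 kb) for macrochromosomes, intermediate chromosomes, microchromosomes and Z, with LBC type 1 as a solid line and LBC type 2 as a dashed line. On macrochromosomes and Z the type 1 line is flatter and reaches further to the right, and on intermediate chromosomes and microchromosomes it lies further to the left.

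The share of long and of short domains was compared by class, without splitting the mean difference by size. On macrochromosomes and Z together, 142 of 984 type 1 domains were over 1 Mb long, 14.4%, and 58 of 1074 type 2 domains, 5.40%. Those up to 400 kb made up 18.1% of type 1 and 13.9% of type 2 there. The excess over 1 Mb lay on chromosomes 1, 2, 4 and Z. Chromosome 3 went the other way, with 11 of 178 type 1 domains and 15 of 173 type 2 domains, and chromosome 5 held 0 in type 1 and 1 in type 2. On Z alone, 31 of 91 type 1 domains and 13 of 104 type 2 domains were over 1 Mb, 34.1% and 12.5%, and 15 type 1 domains and 5 type 2 domains were up to 400 kb long. On intermediate chromosomes and microchromosomes together, domains over 1 Mb were few in both lists, 14 of 562 in type 1 and 18 of 508 in type 2. Domains up to 400 kb were the more frequent there in type 1, 144 of 562 or 25.6%, against 70 of 508 or 13.8% in type 2.

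The longest type 1 domain lay on chromosome 1 from 193056001 to 194992000, with 1936 kb. The type 2 map placed boundaries at 193152000 and 193968000 inside it, and the nearest type 2 boundaries were 96 kb from its start and 240 kb from its end. The next longest type 1 domains were both on Z, from 63072001 to 64912000 with 1840 kb and from 2736001 to 4480000 with 1744 kb, the first by position of 2 domains of that size. The domain of 1744 kb began at the same position as a type 2 domain, and a type 2 boundary at 3824000 lay inside it. The longest type 2 domain overlapped the longest type 1 domain of Z and lay from 62752001 to 64192000, with 1440 kb. Its best overlap with a type 1 domain was 0.519 of their union, as a type 1 boundary at 63072000 lay inside it. The other longest type 2 domains were on Z from 4688001 to 6112000, with 1424 kb, and on chromosome 19 from 2416001 to 3824000, with 1408 kb. In type 1 that stretch of chromosome 19 began at the same position and held a boundary at 3360000. Of 156 type 1 domains over 1 Mb, 139 or 89.1% held a type 2 boundary more than 80 kb from their ends, and of 76 type 2 domains over 1 Mb, 51 or 67.1% held such a type 1 boundary. Over domains of all sizes the shares were 48.2% of type 1 and 47.3% of type 2, and they went with length, with 51.8% of type 1 and 50.5% of type 2 at 400 to 1000 kb and 16.5% of type 1 and 21.5% of type 2 up to 400 kb.

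The shortest domains were of 208 kb, 13 in type 1 and 4 in type 2. The first of them by position in type 1 lay on chromosome 1 from 21776001 to 21984000, inside a single type 2 domain of larger size, and overlapped it over 0.591 of their union. That on chromosome 1 from 39648001 to 39856000 lay across a type 2 boundary 16 kb from its start, and that on chromosome 3 from 13232001 to 13440000 shared its end with a type 2 domain. In type 2 they lay on chromosome 2 from 68576001 to 68784000 and from 79216001 to 79424000 and on chromosome 5 from 16464001 to 16672000. The second of these had a close counterpart in type 1, with an overlap over union of 0.867.

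Boundaries were then compared. A position used by neighbouring domains was counted once, which gave 1710 boundaries in type 1 and 1725 in type 2, and a boundary was counted as shared if the other list had one at most 80 kb away on the same chromosome. Of the type 1 boundaries, 906 were shared, 53.0% (50.6% to 55.3%), and of the type 2 boundaries, 909, or 52.7% (50.3% to 55.0%). This left 804 boundaries found in type 1 and 816 found in type 2 without a counterpart. As a measure of how much sharing the spacing of the boundaries alone gives, 28.1% of the 16 kb grid positions within type 1 domains and 28% of those within type 2 domains lay within 80 kb of a boundary of the other list. The shared share lay above this level in both lists on all 28 chromosomes, although its interval reached down to this level on 4 microchromosomes, 18, 21, 23 and 27, in either list. Of the boundaries, 24.4% of type 1 and 24.2% of type 2 were at exactly the same position.

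Boundaries at chromosome ends and at gaps, the stretches that no domain covers, were shared more often than others, although most shared boundaries were borders at which 2 domains touch. Of the 56 outermost boundaries of each list, 52 were shared, 92.9%. At the edges of gaps, 212 of 272 type 1 boundaries and 193 of 230 type 2 boundaries were shared, 77.9% and 83.9%. Of the borders at which 2 domains touch, 642 of 1382 were shared in type 1, 46.5% (43.8% to 49.1%), and 664 of 1439 in type 2, 46.1% (43.6% to 48.7%). Borders at exactly the same position were 215 of type 1 and 228 of type 2, 15.6% and 15.8%. Most of the borders inside domain-covered stretches thus had no counterpart within 80 kb in the other type. On chromosome 23 the share of such borders lay below the level that spacing alone gives on that chromosome. It was 2 of 9, 22.2%, in type 1 against a level of 27.1%, and 2 of 8, 25%, in type 2 against 30.7%.

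**Figure D3:**
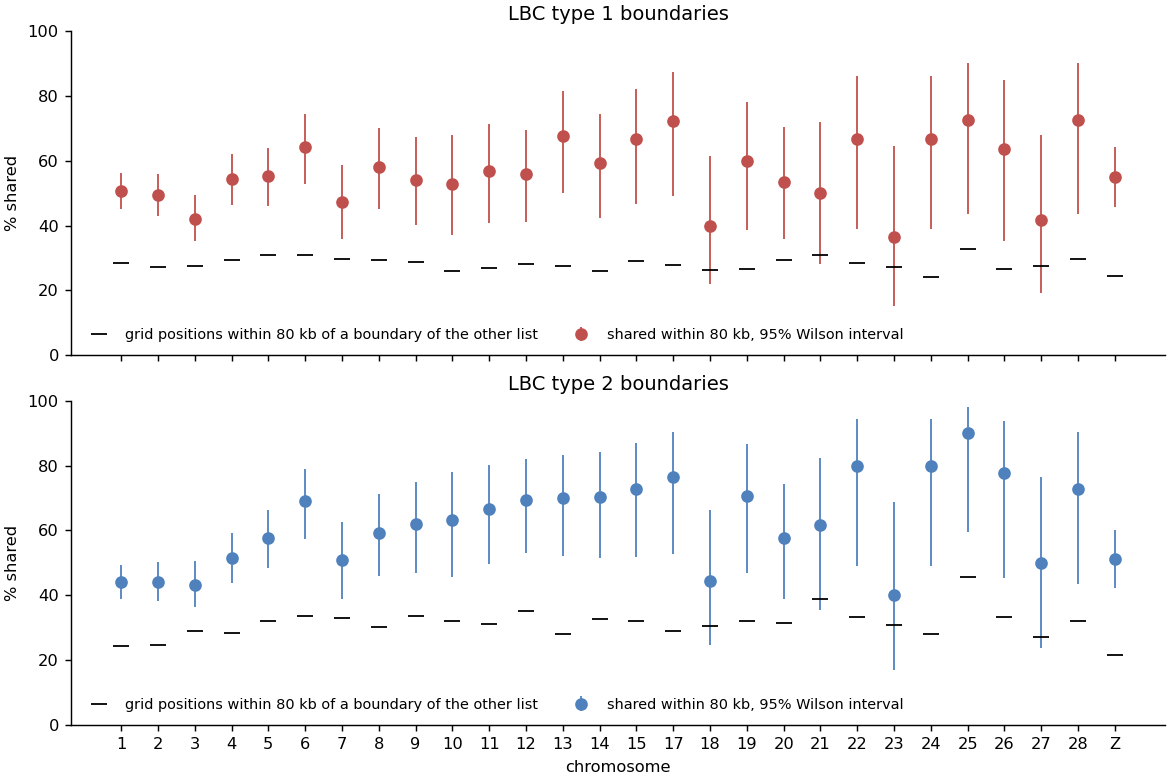
Share of boundaries with a counterpart within 80 kb in the other list (vertical axis, %) on each chromosome (horizontal axis), for LBC type 1 boundaries in the upper panel and LBC type 2 boundaries in the lower panel, with 95% Wilson intervals. Black dashes give the share of 16 kb grid positions within 80 kb of a boundary of the other list, and every point lies above its dash.

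By class, the share of type 1 boundaries was 49.9% on macrochromosomes, 55.7% on intermediate chromosomes, 58.7% on microchromosomes and 55.1% on Z. In type 2 the shares were 46.5%, 60.6%, 67.3% and 51.3% in the same order. The level from spacing was 28.4%, 29.2%, 27.7% and 24.4% in type 1 and 26.6%, 32.4%, 31.9% and 21.6% in type 2. Over borders at which 2 domains touch, the type 1 shares were 44.5%, 50%, 49.4% and 46.7%. The type 2 shares over such borders were 41.6%, 54.8%, 58.1% and 40.7%. Over all boundaries, the list with fewer boundaries in a class had the higher share in that class, and the type 1 share was below the type 2 share on 23 of 28 chromosomes. The highest type 1 shares were on chromosomes 25 and 28, 72.7% each (43.4% to 90.3%), and on chromosome 17, 72.2% (49.1% to 87.5%). The lowest were on chromosomes 23, 18 and 27, with 36.4% (15.2% to 64.6%), 40% (21.9% to 61.3%) and 41.7% (19.3% to 68.0%). These 6 chromosomes had between 11 and 20 type 1 boundaries, and their intervals overlapped. Of their type 1 borders at which 2 domains touch, chromosome 25 shared 2 of 5, chromosome 28 4 of 7 and chromosome 17 11 of 16. Chromosome 23 shared 2 of 9 such borders, chromosome 18 5 of 16 and chromosome 27 2 of 6. Among the long chromosomes, chromosome 3 had the lowest share over all boundaries, 42.2% in type 1 (35.3% to 49.4%) and 43.3% in type 2. Over borders at which 2 domains touch, it had 39.8% in type 1 and 41.7% in type 2. Chromosome 1 had 41.2% and 34.5% over such borders, so that chromosome 3 was not the lowest there in type 2. Spearman's rho of the share over all boundaries with chromosome length was -0.41 in type 1 and -0.63 in type 2 over 28 chromosomes. Over borders at which 2 domains touch it was 0.065 in type 1 and -0.32 in type 2.

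Matching boundaries one to one along each chromosome gave 903 pairs and an F1 score, the harmonic mean of the shares matched in each list, of 0.526. Of these pairs, 418 or 46.3% lay at the same position, 146 or 16.2% were 1 bin of 16 kb apart and 339 or 37.5% further apart. Beyond 1 bin the counts were nearly flat, between 34 and 50 pairs at each displacement. Among the 485 displaced pairs, the type 1 boundary was at the higher coordinate in 249, or 51.3%. Over the 637 pairs in which both boundaries were borders of touching domains, 33.8% were at the same position, 17.4% 1 bin apart and 48.8% further apart. The counts were thus highest at 0 and 1 bin and varied little with distance beyond that.

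**Figure D4:**
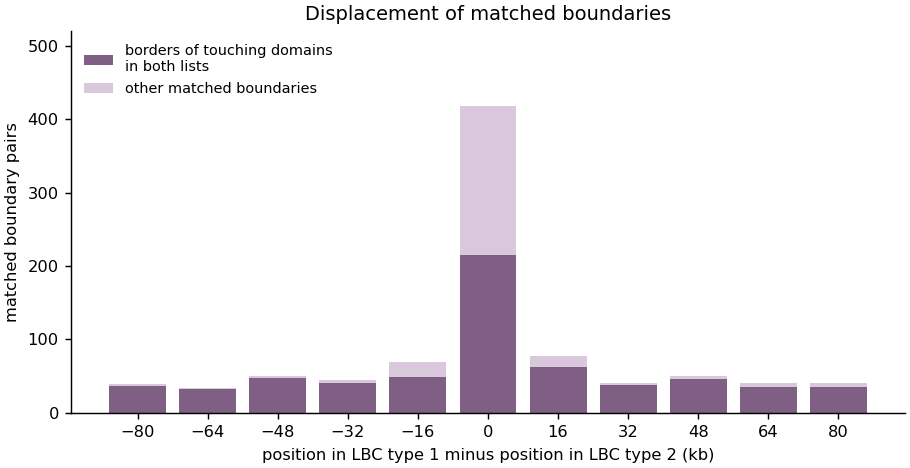
Number of matched boundary pairs (vertical axis) by position in LBC type 1 minus position in LBC type 2 in kb (horizontal axis, steps of 16 kb), with pairs of borders at which 2 domains touch in dark bars and other pairs stacked on them in light bars. The bar at 0 holds 418 pairs, and bars beyond 1 bin hold between 34 and 50.

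Unshared boundaries lay, with few exceptions, inside a domain of the other type. Of 804 type 1 boundaries without a counterpart, 794 were inside a type 2 domain, at a median of 192 kb from its nearer end. These host domains had a median size of 672 kb, against 608 kb over all type 2 domains. Of 816 type 2 boundaries without a counterpart, 808 were inside a type 1 domain, at a median of 208 kb from its nearer end, and the hosts had a median of 752 kb, against 592 kb over all type 1 domains. Both the distance and the size of the host are set in part by the definition, since an unshared boundary is over 80 kb from any boundary of the other list and any position falls more often in a longer domain. Most unshared boundaries stood alone or in short runs, with a median run of 1 in type 1 and 2 in type 2. The longest run in type 1 was of 11 boundaries on chromosome 7 between 192000 and 4192000, and the longest in type 2 of 9 on chromosome 1 between 40400000 and 45488000.

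Domains with nearly the same extent in both maps were a minority. A domain of the other list with an overlap of at least 0.8 of their union was found for 407 domains of each list, 26.3% of type 1 and 25.7% of type 2. The best overlap of a domain had a median of 0.643 in type 1 and 0.636 in type 2. Exactly the same start and end were found for 61 domains, on 20 chromosomes, with a median of 544 kb and sizes of 224 to 1040 kb. The longest of them lay on chromosome 9 from 18128001 to 19168000. On microchromosomes the share at 0.8 was 31.9% in type 1 and 36.1% in type 2, and on macrochromosomes 24.4% in type 1 and 22.5% in type 2.

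To count splits and merges, the matched boundaries were used to divide each chromosome into blocks that begin and end at the same place, within 80 kb, in both lists. Any stretch before the first or after the last matched boundary of a chromosome was in no block. The longest run of unshared type 1 boundaries, on chromosome 7, lay in such a stretch. There were 791 blocks with domains, over 987 Mb, and 84 blocks that were gaps in both lists. A block was kept if it held 1 domain in each list, split in type 1 if it held several type 1 domains and 1 type 2 domain, merged in type 1 in the opposite case, and rearranged if it held several in both. Kept were 366 blocks, 46.3%, with 22.1% of the length. Split in type 1 were 50 blocks, 6.32%, and merged in type 1 were 36, 4.55%, with 39.6 and 40.8 Mb. The other 339, or 42.9%, were rearranged and took up 688 Mb, 69.7% of the length. Clean splits and merges were thus few beside stretches in which several domains were replaced by several others.

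**Figure D5:**
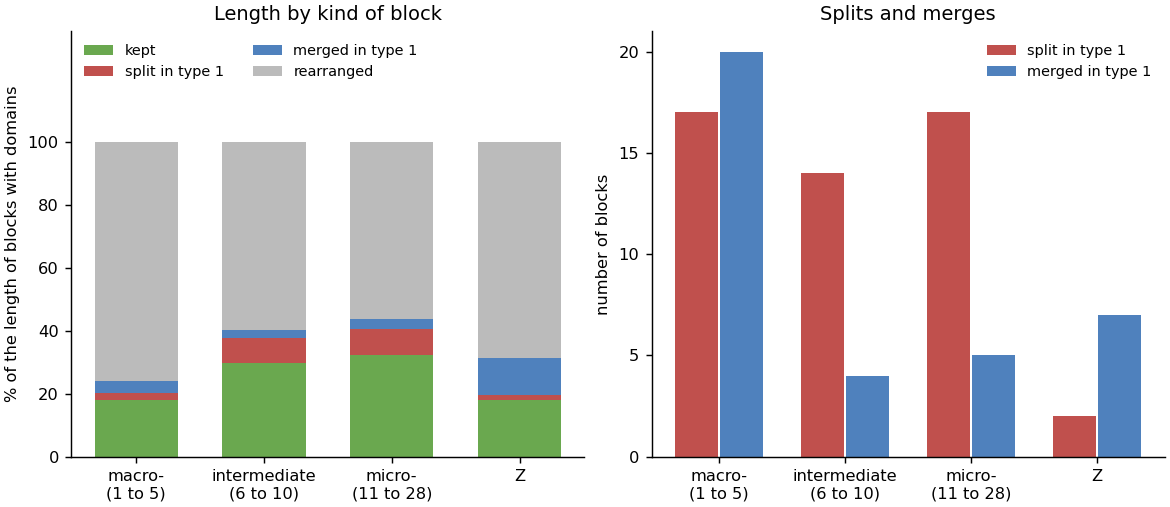
Blocks between matched boundaries by chromosome class (horizontal axes), as % of the length of blocks with domains by kind of block (left) and as the number of blocks split in type 1 and merged in type 1 (right). Rearranged blocks take most of the length in every class, merges are the more frequent on Z and, narrowly, on macrochromosomes, and splits are the more frequent on intermediate chromosomes and microchromosomes.

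Every split and every merge had exactly 2 parts. Splits had a median block size of 768 kb and their type 1 parts a median of 368 kb. Merges were longer, with a median of 1104 kb, and their type 2 parts had a median of 576 kb. Kept blocks had a median of 576 kb, and rearranged ones 1760 kb. In 47 splits without a gap, the smaller part took a median of 40.6% of the domain, and in 29 merges 42.3%. The lowest value was 23.1% in splits and 19.2% in merges. No domain of either list is under 208 kb, which limits how small a part can be.

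The balance of splits and merges differed between chromosomes. Macrochromosomes held 17 splits and 20 merges, Z held 2 splits and 7 merges, intermediate chromosomes 14 splits and 4 merges, and microchromosomes 17 splits and 5 merges. On chromosomes 1, 2, 4 and Z, whose mean type 1 domain was the longer, there were 9 splits and 26 merges, and on all others 41 splits and 10 merges. Splits occurred on 24 chromosomes and merges on 12, and all 12 also held a split. Chromosome 3, a macrochromosome with a size ratio below 1, held 7 splits and 0 merges. Since fewer domains over the same length mean longer ones, these counts and the size ratios describe the same difference and are not separate support for it. Of the 339 rearranged blocks, 183 held equal numbers of domains in both lists, 53 held more in type 1 and 103 fewer in type 1. By class, the blocks with more and with fewer domains in type 1 numbered 19 and 85 on macrochromosomes, 0 and 8 on Z, 11 and 7 on intermediate chromosomes and 23 and 3 on microchromosomes. With splits and merges included, 38 blocks on macrochromosomes and Z held more domains in type 1 and 120 held fewer, against 65 and 19 on intermediate chromosomes and microchromosomes.

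The longest block split in type 1 was at the start of chromosome 8, from 1 to 1104000, where domains of 560 and 544 kb met at 560000 in type 1 and a single domain of 1104 kb stood in type 2. On chromosome 6 from 8272001 to 9344000, type 1 had domains of 576 and 496 kb, against 976 kb in type 2. On chromosome 11 from 18768001 to 19824000, they were of 768 and 288 kb in type 1, against 960 kb in type 2. On chromosome 3 from 4960001 to 6000000, they were of 800 and 240 kb in type 1, against 1056 kb in type 2. On chromosome 22 from 1552001 to 2576000, they were of 656 and 368 kb in type 1, against 944 kb in type 2. Of these 5, those on chromosomes 8 and 6 were divided near the middle, and those on chromosomes 11 and 3 near one end.

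The longest block merged in type 1 was on Z from 70336001 to 72032000, a domain of 1696 kb in type 1 where type 2 had domains of 512 and 1200 kb that met at 70832000. On chromosome 2 from 117872001 to 119536000, a type 1 domain of 1664 kb stood against type 2 domains of 704 and 960 kb that met at 118592000. On chromosome 1 from 9472001 to 11008000, a type 1 domain of 1536 kb stood against 736 and 784 kb in type 2, and on chromosome 2 from 85680001 to 87216000, another of 1536 kb against 704 and 896 kb in type 2. On chromosome 4 from 17408001 to 18848000, a type 1 domain of 1200 kb stood against 704 and 656 kb in type 2, and both lists left a gap in this block. All 5 were on the 4 chromosomes with a size ratio above 1.

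The commonest rearranged block held 2 domains in both lists, 109 of 339. In the 97 of them without a gap, the inner boundary lay a median of 208 kb apart between the types, between 96 and 608 kb, with the type 1 boundary at the higher coordinate in 49. In 32 of them the distance was at most 160 kb. The 3 longest rearranged blocks were all on chromosome 1. The first, from 39648001 to 46112000, held 8 domains in type 1 and 9 in type 2 over 6464 kb, and the longest run of unshared type 2 boundaries lay in it. The second, from 185344001 to 190896000, held 6 domains in type 1 and 8 in type 2, and the third, from 172608001 to 177968000, held 7 in each. The block with the most domains was on chromosome 3 from 8080001 to 13440000, where both outer boundaries were at the same position in both lists and 11 type 1 domains stood against 9 type 2 domains.

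Most kept domains stood alone or in pairs, with 132 runs of 1 and 55 of 2 kept blocks, against 11 runs of 4, 2 of 5, 1 of 6 and 1 of 7. The longest was of 7 on chromosome 14, from 3440001 to 7648000, where the sizes along the run were 688, 592, 496, 768, 576, 416 and 672 kb in type 1 and 688, 704, 480, 736, 592, 448 and 640 kb in type 2. The next was of 6 on chromosome 15 from 4896001 to 8384000. There the sizes were 368, 560, 672, 624, 848 and 416 kb in type 1 and 336, 560, 576, 704, 848 and 416 kb in type 2. The third was of 5 on chromosome 9 from 15856001 to 19664000, with 512, 1008, 752, 1040 and 496 kb in type 1 and 496, 992, 752, 1040 and 496 kb in type 2, and 4 of its 6 boundaries were at the same position. Chromosome 23, with the lowest share of shared boundaries, was the 1 chromosome without a kept domain.

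The position along the chromosome was also examined. Within 2 Mb of the outermost boundaries the mean domain size was 532 kb in type 1 and 598 kb in type 2, a ratio of 0.889, and over 10 Mb from them it was 679 kb in type 1 and 620 kb in type 2, a ratio of 1.1. No microchromosome domain lay over 10 Mb from them. On macrochromosomes alone the ratio was 0.917 within 2 Mb, from 30 type 1 domains and 28 type 2 domains, 0.996 from 2 to 5 Mb, 0.974 from 5 to 10 Mb and 1.1 beyond. In the same order it was 0.892, 0.947, 0.868 and 0.975 on intermediate chromosomes. On Z it was 1.19, 1.17, 1.22 and 1.13, with 4 type 1 and 5 type 2 domains within 2 Mb. The shared share of borders at which 2 domains touch was 48.6% in type 1 and 56.9% in type 2 within 2 Mb of the outermost boundaries, and 44.5% in type 1 and 41.2% in type 2 over 10 Mb from them. These distances hold different classes, with 74 of the 123 type 2 borders within 2 Mb on microchromosomes and none of theirs over 10 Mb. On macrochromosomes alone the type 1 share was 45% within 2 Mb, from 20 borders, then 54.1%, 45.3% and 43.9%. The type 2 share there was 55.6%, from 18 borders, then 54.3%, 45.3% and 40.4%. Across 5 equal parts of each chromosome, the share over all chromosomes lay between 44.5% and 48.5% in type 1 and between 44.7% and 48.8% in type 2. Within classes it ranged more widely, between 36.2% and 64.7% in type 1 and between 38.3% and 68.1% in type 2 on intermediate chromosomes, where each part held 37 to 51 borders. The type 1 share of borders was 40.4% within 0.5 Mb of the nearest gap, 44.7% from 0.5 to 2 Mb, 45.8% from 2 to 5 Mb and 49.3% beyond. In the same order the type 2 share was 50.4%, 42.6%, 44.3% and 49.2%. Within 0.5 Mb there were 99 type 1 and 119 type 2 borders. No intervals were taken for these shares, and whether the type 1 values differ beyond counting error was not tested.

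In windows of 10 Mb with at least 8 domains in each list, a division chosen after the values above were seen, mean domain size varied more in type 1, with an SD of 121 kb over 103 windows, than in type 2, with 69.9 kb. On microchromosome windows alone it did not, with 52 kb in type 1 and 57.4 kb in type 2. The ratio lay between 0.723 and 1.40. It was over 1.1-fold higher in type 1 in 31 of 61 windows of macrochromosomes, 6 of 7 of Z, 1 of 15 of intermediate chromosomes and 0 of 20 of microchromosomes. It was over 1.1-fold lower in 4 windows of macrochromosomes, 0 of Z, 6 of intermediate chromosomes and 13 of microchromosomes. Chromosome 1 had the highest ratio, in the window from 100000001 to 110000000, with 847 kb in type 1 and 604 kb in type 2. The ratio was above 1 in all windows of chromosome 1, so that the longer type 1 domains were spread over its length. The lowest ratio was on chromosome 10 from 1 to 10000000, with 17 type 1 domains of 477 kb and 12 type 2 domains of 660 kb on average.

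Between the domains, type 1 left 136 gaps with 33.9 Mb and type 2 115 gaps with 30.4 Mb. Of these, 60 gaps with 18.9 Mb were identical in both lists, among them the longest of both, of 8896 kb on Z. Most were short, 103 in type 1 and 86 in type 2 of at most 200 kb, the length below which the lists hold no domain. Fully covered by domains of the other type were 36 gaps of type 1 and 16 of type 2. The longest such gap in type 1 was on chromosome 18 from 2800001 to 3088000, with 288 kb, and was followed by 2 of 192 kb on chromosome 2, from 137424001 to 137616000 and from 139888001 to 140080000. In type 2 they were on chromosome 2 from 49792001 to 49984000 with 192 kb, on chromosome 6 from 28752001 to 28928000 with 176 kb and on chromosome 2 from 8496001 to 8656000 with 160 kb.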

How the data were processed

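Hi-C was carried out on single nuclei, and the labels name 14 LBC type 1 and 6 LBC type 2 nuclei. The authors trimmed reads with cutadapt, aligned them with juicer to ASM2420605v2, stored contacts with cooler, pooled the nuclei of each type and called domains with lavaburst. The deposited values are domain coordinates in bp, 1 list per type, with no score. The methods give a resolution of 20 kb for domain calling, whereas the lists lie on a 16 kb grid. The lists of the later stage, and a list refined by hand, were not used here, and neither were contact maps or a genome sequence and annotation of this assembly.

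Lists were compared with Python 3.11.15, numpy 2.4.6 and scipy 1.17.1, and plots were drawn with matplotlib 3.10.9. Boundaries were shared within 80 kb and matched one to one in order, with the most pairs and then the least distance. A domain belonged to the block that held its middle. The matching and the blocks were tested on simulated data. Regions named are the 3 longest and shortest domains of each list, the 3 chromosomes with the highest and the lowest values and Z, the 5 longest splits and merges, the 3 longest rearranged blocks and the 1 with the most domains, the 3 longest kept runs, and the 3 longest gaps covered in the other list. Other regions were chosen after their values were seen. Members and rules were chosen with earlier results of these data known. Alternatives were other tolerances, boundaries, domain filters, overlap thresholds, class limits and left-out chromosomes.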

Additional observations from a re-analysis of the deposited data

How the results depend on the processing

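Of 84 values under alternatives, 50 stayed within a limit and 34 moved beyond it. The limit was the 95% interval for a share, 1.5 times for a count and 1.1-fold for a size ratio, so that rearranged blocks, with 339 at 80 kb and 245 at 0 kb, stayed within it. Most moves came with the tolerance. At 0, 20, 40 and 160 kb, the share of type 1 boundaries shared was 24.4%, 33.0%, 38.0% and 69.5%, that of type 2 boundaries 24.2%, 32.8%, 37.7% and 67.9%, and the F1 score 0.243, 0.328, 0.378 and 0.675. At the same tolerances, kept domains numbered 71, 129, 172 and 601, splits in type 1 10, 20, 21 and 81, and merges in type 1 4, 15, 20 and 72. The level of sharing that spacing alone gives also rises with the tolerance. It is given here for 80 kb only, so the shares at other tolerances are not set against it. Over 500 kb from gaps and outermost boundaries the shares were 47.2% in type 1 and 45.8% in type 2. With 1 border per pair of neighbours they were 48.4% in type 1 and 46.8% in type 2, and over borders of touching domains, an alternative chosen after seeing the data, 46.5% in type 1 and 46.1% in type 2. With an overlap over union of 0.7 and 0.9, domains of the same extent numbered 632 and 226 in each list. At 20, 40 and 160 kb, macrochromosomes and Z held 6, 6 and 32 splits and 10, 13 and 58 merges, and the other chromosomes 14, 15 and 49 splits and 5, 7 and 14 merges, so the order of the counts within each set did not turn.

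Over all domains the size ratio was 1.02 by means and 0.974 by medians, and between 0.985 and 1.03 with 1 chromosome left out, so its direction was not settled. On macrochromosomes it stayed between 1.03 and 1.11, on Z between 1.13 and 1.22, and below 1 on intermediate chromosomes and microchromosomes under every alternative run. No paired analysis was possible because each type is 1 pooled list, and replicates could not be left out for the same reason. Depth, gamma and the spread between nuclei limit every value and could not be examined from lists of coordinates. The pools of 14 and 6 nuclei may differ in depth, and the paper's quality statistics of each library were not used here.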
